A study of Mus musculus with 4 samples.

Results

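The potassium channel genes of the mouse genome were followed in cultured neonatal testes. The members were all probe sets whose single gene symbol in the array annotation starts with Kcn followed by letters and a number. They numbered 167 of the 45101 probe sets of the array and stood for 84 gene symbols. Of these, 81 encode channel subunits or their accessory proteins. The other 3, with 8 probe sets, are RNA genes named after a channel gene, Kcnq1ot1, Kcnmb4os1 and Kcnmb4os2. The members were chosen by name alone, but the family itself was selected on the measured differences of Kcnh1 and Kcne1 between the groups, which were already known. The comparison of the groups is therefore given as a description, no p-value is given for a single member, and nothing is supported with it.

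Whole testes from mice of strain 129, aged 2 days post partum, were cultured as organs for 24 h with WIN 18,446 at 1 µM (2 samples) or with its vehicle, dimethyl sulfoxide (2 samples). WIN 18,446 blocks the retinaldehyde dehydrogenases, which make retinoic acid. Both groups were cultured on agar in medium that held fetal bovine serum. Total RNA of each sample was hybridised to 1 Affymetrix 430 2.0 array of the mouse genome, and the labels do not say whether samples came from separate animals or cultures.

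Potassium channels let potassium leave or enter the cell along its gradient and so set the membrane potential. Voltage-gated subunits open on depolarisation, inward rectifiers and the tandem-pore channels of the Kcnk group carry current near rest, and a further group opens with intracellular calcium or sodium. Small accessory proteins, among them the Kcne, Kcnab, Kcnip and Kcnmb groups, bind the pore-forming subunits and change their gating or traffic. In the testis these genes are best known from the sperm membrane potential, where the pH-sensitive channel Kcnu1 acts, and from the smooth muscle of vessels.

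Values are the authors' log2 levels, and a difference is WIN 18,446 minus vehicle on that scale, so that 1 unit is a 2-fold difference. Bacterial control probe sets with no target in the sample read at most 2.22, and where both arrays of a group were at or under 2.22 only a bound can be given. The brightness of a probe set also depends on its own probes, so levels are not ranked between genes. Median levels of the 4 arrays lay between 3.72 and 3.83. Pearson's r across the tested probe sets (genes, not replicates) was 0.985 for the WIN 18,446 arrays and 0.992 for the vehicle arrays. WIN 18,446 array 1 stood apart in the 5' control probe set of 18S ribosomal RNA, with 6.55 there and 8.67 on WIN 18,446 array 2, against 8.12 and 8.17 on the vehicle arrays. Precision is limited by the 2 arrays of each group. The tissue markers fixed for the check were present: 7 of 7 Sertoli cell genes, 7 of 8 germ cell genes and 4 of 4 Leydig cell genes had a mean level of at least 5, and the germ cell gene Dppa3 was at background.

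Most potassium channel probe sets gave no signal. On all 4 arrays 100 of the 167 (59.9%) were at background, against 34.1% of all probe sets other than controls. For 37 of the 84 symbols no probe set rose above that level. A mean level of at least 5 over the 4 arrays, the condition for the group comparison, was met by 31 probe sets of 26 genes (18.6%, against 46.4% of all), and the other 36 lay in between. A probe set at background does not show a silent gene, since of 46 genes with several probe sets 15 had only 1 above background. Inward rectifiers mostly gave no signal, with 26 of 31 probe sets at background and only Kcnj3 and Kcnj8 at a mean of 5 or more. Of the 49 probe sets of voltage-gated alpha subunits 29 were at background and 6 reached that mean (Kcna6, Kcnc2, Kcnc4, Kcnd3, Kcns2 and Kcns3). Of the 29 probe sets for accessory subunits 18 were at background and 5 were tested. Tandem-pore channels and the calcium- and sodium-activated channels each had 6 tested probe sets, of 18 and 16.

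**Figure D1:**
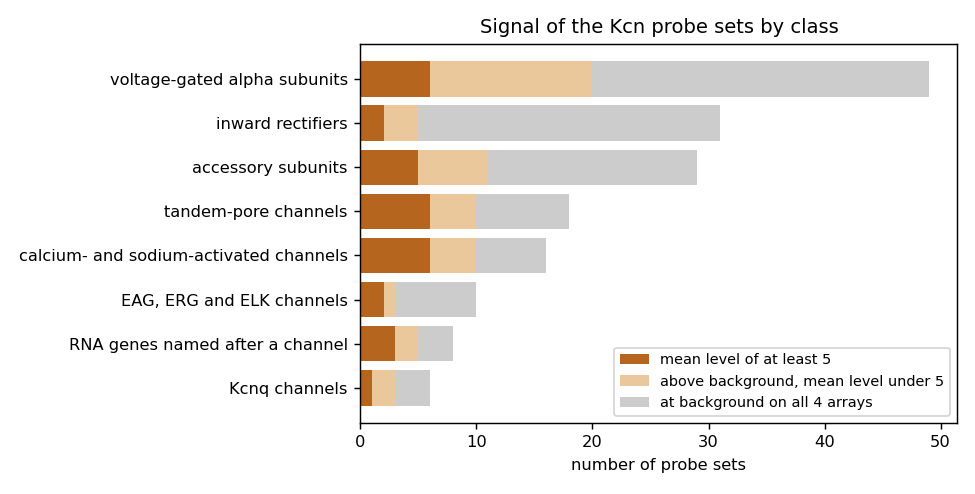
Number of Kcn probe sets in each class (x axis), split into those with a mean level of at least 5, those above background with a mean under 5, and those at background (2.22 or less) on all 4 arrays. The inward rectifiers have 26 of 31 probe sets at background.

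Between the groups, the channel genes Kcnh1 and Kcne1 were higher with WIN 18,446 and the inward rectifier Kcnj3 was lower. Limma called 3 of the 31 tested member probe sets at an adjusted p under 0.05, Kcnh1 and Kcnmb4 higher and Kcnj3 lower, where it called 5.18% of all 20895 tested (2.27% higher and 2.91% lower). Nothing is read from that count, since the same contrast brought the family up. Without vehicle array 1 or vehicle array 2 limma called 0 of the members (10 and 8 at an unadjusted p under 0.05), as it called 0 of all 20882 and 20877 probe sets then tested (2435 and 2804 at an unadjusted p under 0.05). Over all 167 members the median difference was -0.0053, against -0.0049 over all probe sets, values set by the many at background. Over the 31 tested it was -0.18, against -0.02 over all tested, with 20 lower and 11 higher (64.5% lower, against 53.5%). The groups did not overlap in 14 tested members that were lower and 5 that were higher, and overlapped in 12; over all tested probe sets the groups did not overlap in 53.1% (29.3% lower and 23.8% higher). A difference of at least 1 unit was seen in 5 of the 31, against 5.31% of all tested. Means of 4 arrays leave out 5 probe sets in which 1 group averaged 5 or more, 1 of Kcnh1, both of Kcne1, and those of Kcna5 and Kcne1l.

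**Figure D2:**
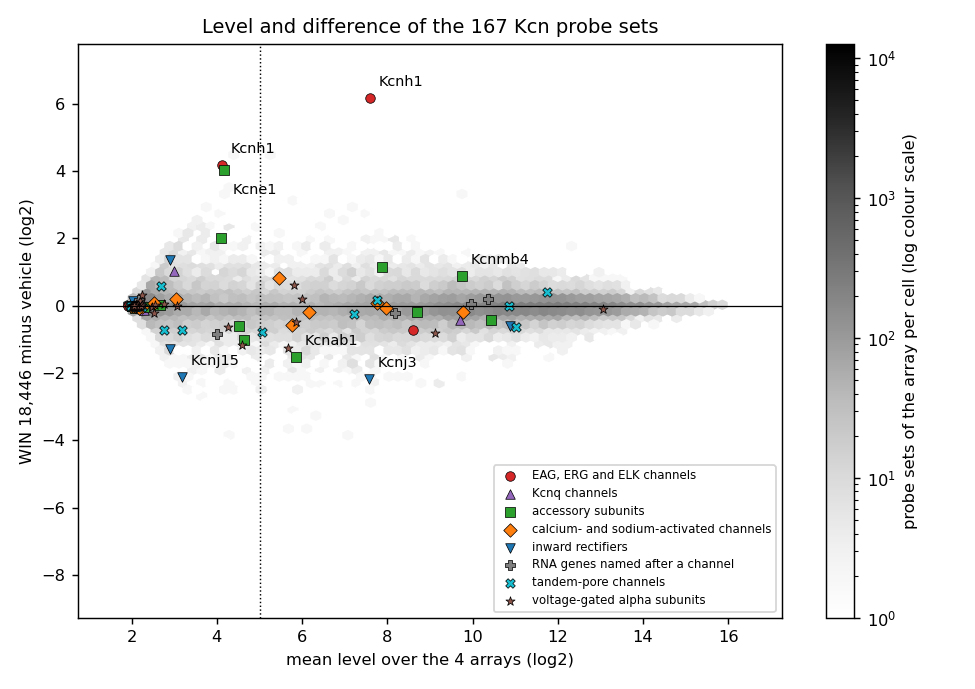
Mean level over the 4 arrays (x axis, log2) against WIN 18,446 minus vehicle (y axis, log2) for the 167 Kcn probe sets, coloured by class, over all probe sets of the array in grey; the dotted line marks the mean level of 5. Kcnh1 at 6.17 lies above the other members and Kcnj3 at -2.17 below them.

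The start regions of the 3 called genes and of Kcnj15, which was at background with WIN 18,446 and above it with vehicle, are shown so that the start sites of genes that differed can be read beside their values; no start region of Kcne1 was used here. Each is the 250 bases before the gene's start from RefSeq, build GRCm38.p6, written 5' to 3' on the gene's strand. Capitals mark every match, on either strand, to 5 motifs: the retinoic acid receptor half-site AGGTCA, the TATA box TATAAA, the CCAAT box CCAAT, the GC box GGGCGG and the E-box CACGTG.
Kcnh1, chr1:192190527-192190776, plus strand: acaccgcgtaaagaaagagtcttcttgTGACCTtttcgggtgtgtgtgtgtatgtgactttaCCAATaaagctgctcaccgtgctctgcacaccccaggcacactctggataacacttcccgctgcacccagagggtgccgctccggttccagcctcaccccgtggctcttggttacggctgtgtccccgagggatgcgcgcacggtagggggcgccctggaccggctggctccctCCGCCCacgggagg
Kcnmb4, chr10:116473524-116473773, minus strand: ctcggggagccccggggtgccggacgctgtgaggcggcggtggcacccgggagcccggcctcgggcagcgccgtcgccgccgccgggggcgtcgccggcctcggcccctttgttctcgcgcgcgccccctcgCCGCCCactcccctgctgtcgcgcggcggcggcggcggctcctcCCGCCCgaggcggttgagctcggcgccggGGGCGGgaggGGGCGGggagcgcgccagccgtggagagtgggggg
Kcnj3, chr2:55435720-55435969, plus strand: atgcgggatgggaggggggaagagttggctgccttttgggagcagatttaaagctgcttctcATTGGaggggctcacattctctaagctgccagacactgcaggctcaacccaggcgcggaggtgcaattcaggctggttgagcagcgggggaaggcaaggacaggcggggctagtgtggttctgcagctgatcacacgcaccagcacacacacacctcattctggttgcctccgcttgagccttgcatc
Kcnj15, chr16:95257308-95257557, plus strand: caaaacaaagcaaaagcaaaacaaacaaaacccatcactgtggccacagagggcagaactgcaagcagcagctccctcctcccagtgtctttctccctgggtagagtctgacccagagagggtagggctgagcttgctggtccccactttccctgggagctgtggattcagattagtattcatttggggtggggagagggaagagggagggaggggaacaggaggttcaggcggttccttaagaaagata
Kcnh1 held 1 half-site, read on the other strand from 223 bases before the start, a CCAAT box and a GC box. Kcnmb4 held 4 GC boxes, Kcnj3 held 1 CCAAT box and Kcnj15 none of the 5 motifs. The half-site was found in 5 of 87 start regions of 62 member genes (5.75%), against 14.0% of 32851 start regions of the table. The GC box was in 44.8% of the members' regions, against 32.7%, the CCAAT box in 29.9% against 33.8%, the TATA box in 3.45% against 12.4% and the E-box in 5.75% against 6.02%. A match in these letters is not a binding site.

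Kcnh1 encodes the ether-a-go-go channel, a voltage-gated pore known from brain and from tumour cells. Its brighter probe set read 10.50 and 10.87 on the WIN 18,446 arrays, against 4.08 and 4.94 on the vehicle arrays. Both treated arrays lay far above both vehicle arrays, by 5.56 units at the closest pair, and the means were 10.68 ± 0.26 and 4.51 ± 0.61 (SD, n = 2 each), a difference of 6.17 (SE 0.34) or 72.2-fold. The second probe set read 5.33 and 7.09 with WIN 18,446, against 2.03 and 2.03 with vehicle. Vehicle was at background there, so the gene was at least 15.9-fold higher by that probe set, a bound that was 29.3-fold without WIN 18,446 array 1 and 8.65-fold without WIN 18,446 array 2. The protein-coding genes next to Kcnh1 did not share the difference: Rcor3, a corepressor subunit, differed by 0.02, and Hhat, the enzyme that palmitoylates hedgehog ligands, by 0.31, and neither was called. Among its relatives, Kcnh3, Kcnh5, Kcnh7 and Kcnh8 were at background on all arrays. Kcnh2, the ERG channel of cardiac repolarisation, went the other way, with 8.42 and 8.08 on WIN 18,446 arrays, against 9.05 and 8.89 on vehicle arrays (difference -0.72, not called).

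Kcne1 encodes a single-span accessory protein that joins the pore subunit Kcnq1 to form the slow delayed rectifier of heart and inner ear. One probe set read 5.50 and 6.86 with WIN 18,446, against 2.15 and 2.16 with vehicle. The other read 5.20 and 5.01 with WIN 18,446, against 3.10 and 3.08 with vehicle. In both, the treated arrays were above the vehicle arrays with no overlap. Kcne1 was at least 15.6-fold higher by the first (25.0-fold without WIN 18,446 array 1 and 9.76-fold without WIN 18,446 array 2) and 4.04-fold higher by the second. Its means over the 4 arrays were under 5, so neither was tested. The single probe set of Kcnq1, the partner channel, was at background on all 4 arrays (2.00 on both WIN 18,446 arrays, against 2.01 and 2.00 with vehicle), and so was Kcne2, an accessory gene close to Kcne1 on the chromosome. Rcan1, the measured coding gene next to Kcne1, differed by -0.10. Of the other Kcne genes, Kcne4 read 10.22 and 10.21 with WIN 18,446, against 10.60 and 10.68 with vehicle, a difference of -0.42 that was not called. The X-linked Kcne1l read 4.08 and 4.16 with WIN 18,446, against 5.06 and 5.22 with vehicle (difference -1.02). For Kcne3 the groups overlapped (difference -0.18).

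**Figure D3:**
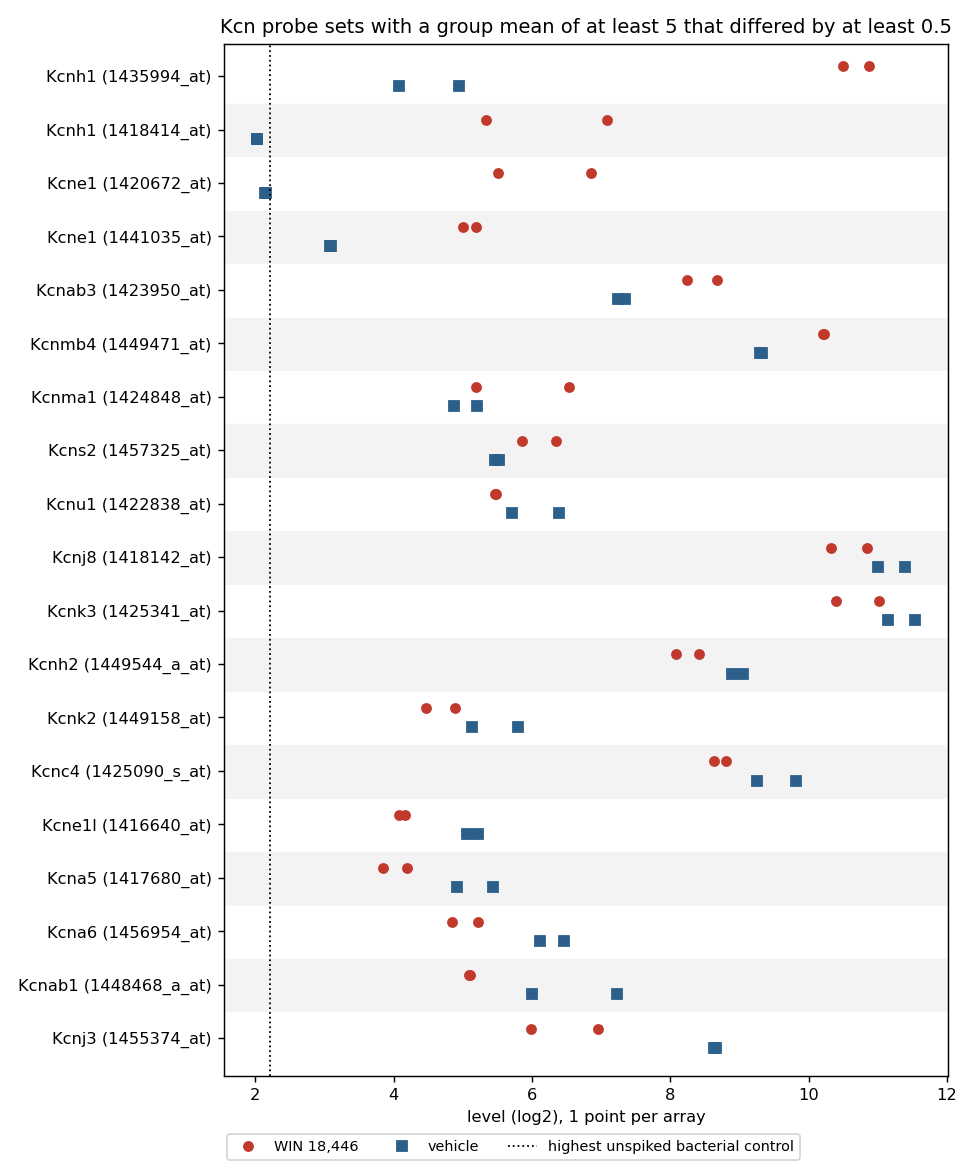
Level of each array (x axis, log2) for the Kcn probe sets that had a group mean of at least 5 and differed by at least 0.5 units; circles are the 2 WIN 18,446 arrays, squares the 2 vehicle arrays, and the dotted line is the highest unspiked bacterial control (2.22). Kcnh1 and Kcne1 have vehicle arrays at or near background in at least 1 probe set, while the groups overlap for the Kcnma1 probe set shown.

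Other accessory subunits differed in both directions. Kcnmb4, a beta subunit of the large-conductance calcium-activated channel, read 10.20 and 10.22 with WIN 18,446, against 9.33 and 9.30 with vehicle. Replicates were nearly equal and the groups lay apart (difference 0.89, SE 0.12, 1.86-fold higher, called). Without WIN 18,446 array 1 limma no longer called it. Its pore subunit Kcnma1 did not follow: the brightest probe set read 9.59 and 9.76 with WIN 18,446, against 9.97 and 9.78 with vehicle (difference -0.19, not called), and another read 6.53 and 5.19, against 5.21 and 4.87, with overlap. That second difference of 0.82 was 0.15 without WIN 18,446 array 1 and 1.49 without WIN 18,446 array 2. The beta genes Kcnmb1 and Kcnmb2 were at background. Kcnab3, a cytoplasmic beta subunit of the Kcna channels, read 8.24 and 8.68 with WIN 18,446, against 7.35 and 7.24 with vehicle, 2.24-fold higher and not called. Its relative Kcnab1 stood the other way round, with 5.09 and 5.10 on WIN 18,446 arrays, against 7.23 and 6.00 on vehicle arrays. The vehicle arrays were far apart there: leaving out vehicle array 1 changed the difference of -1.52 to -0.90, leaving out vehicle array 2 changed it to -2.13, and it was not called. Kcnip3, a calcium-binding subunit of the Kcnd channels, read 4.09 and 4.36 with WIN 18,446, against 4.80 and 4.85 with vehicle.

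Among the inward rectifiers, Kcnj3, which encodes a G protein-gated subunit, fell. Its brightest probe set read 6.96 and 5.99 with WIN 18,446, against 8.66 and 8.63 with vehicle (means 6.47 ± 0.68 and 8.65 ± 0.03, SD, n = 2 each). Both treated arrays lay below both vehicle arrays, and the level was 4.50-fold lower (difference -2.17, SE 0.35). A second probe set ran the same way, with 2.25 and 2.26 on WIN 18,446 arrays, against 3.54 and 3.53 on vehicle arrays, and its other 2 were at background. Kcnj5, Kcnj6 and Kcnj9, the subunits that are known to pair with Kcnj3, were at background in every probe set and on every array. Nr4a2, the next coding gene, differed by 0.17. Kcnj15 was measured by 1 of its 3 probe sets: it read 2.13 and 2.13 with WIN 18,446, which is background, against 4.34 and 4.16 with vehicle, at least 4.09-fold lower. Kcnj8, the pore of the ATP-sensitive channel of vascular smooth muscle and pericytes, read 10.32 and 10.85 with WIN 18,446, against 11.00 and 11.39 with vehicle (difference -0.61, not called). Its regulatory partner Abcc9, a sulfonylurea receptor, read 10.45 and 10.10, against 10.20 and 11.11, with overlap. Kcnj13 rested on a single array, with 4.69 and 2.46 on WIN 18,446 arrays, against 2.05 and 2.41 on vehicle arrays.

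Of the 6 tested voltage-gated alpha subunits 4 were lower and 2 higher, with 0 called by limma. Over all tested probe sets 53.5% were lower and 5.18% were called. Kcna6 read 4.84 and 5.22 with WIN 18,446, against 6.47 and 6.11 with vehicle (difference -1.26, not called), and Kcna5 read 4.19 and 3.85, against 5.44 and 4.91 (difference -1.16, not tested). Both belong to the delayed rectifiers that bind the Kcnab subunits, and in both the groups lay apart. Kcnc4, a fast inactivating channel, read 8.63 and 8.80 with WIN 18,446, against 9.25 and 9.81 with vehicle (difference -0.81, not called). Kcns3 and Kcns2 encode subunits that form no channel alone and modify Kcnb channels. Kcns3 read 5.57 and 5.64 with WIN 18,446, against 6.36 and 5.84 with vehicle, while Kcns2 read 5.85 and 6.35, against 5.52 and 5.47. The groups lay apart in both, in opposite directions, and neither was called. Kcnd3, a transient outward channel, was bright and nearly equal, with 13.04 and 12.97 on WIN 18,446 arrays, against 13.14 and 13.05 on vehicle arrays, and Kcnc2 differed by 0.21 with overlap. Kcnq5, a channel of the M-current group, read 9.63 and 9.31 with WIN 18,446, against 10.02 and 9.80 with vehicle (difference -0.44, not called). Kcnq3 was high on WIN 18,446 array 1 alone, with 4.38 and 2.67, against 2.38 and 2.60 with vehicle.

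Of the 6 tested probe sets of tandem-pore channels, which carry resting current, 4 were lower and 2, those of Kcnk1, higher. Limma called 0 of the 6. Over all tested probe sets 53.5% were lower and 5.18% were called. Kcnk3, an acid-sensitive channel, read 11.01 and 10.39 with WIN 18,446, against 11.54 and 11.15 with vehicle (difference -0.64, not called), and a dimmer probe set differed by -0.73. Kcnk2, a mechanosensitive channel, read 4.46 and 4.88, against 5.13 and 5.80 (difference -0.79, not called). Kcnk1 read 11.87 and 12.02 with WIN 18,446, against 11.59 and 11.50 with vehicle (difference 0.40, SE 0.10, not called). Its dimmer probe set differed by 0.17 with overlap and was not called. Kcnk15 differed by -0.01 and Kcnk6 by -0.24, both with overlap. Below a mean of 5, the groups also lay apart for 1 probe set of Kcnk5, with 2.82 and 2.84 on WIN 18,446 arrays, against 3.45 and 3.66 on vehicle arrays (difference -0.73). They lay apart the other way for 1 of Kcnk13, with 3.03 and 2.90, against 2.46 and 2.31 (difference 0.58), levels close to background. Of the ion-activated channels, Kcnu1, the sperm channel, read 5.48 and 5.46 with WIN 18,446, against 6.39 and 5.72 with vehicle (difference -0.58, not called). The sodium-activated Kcnt1 and the small-conductance Kcnn2 overlapped between the groups in every tested probe set. The imprinted RNA gene Kcnq1ot1, which lies antisense to Kcnq1, had 6 probe sets. Its 3 tested ones differed by -0.21, 0.06 and 0.19, all with overlap.

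The probe sets of a gene could be compared where more than 1 rose above background, which held for 14 of the 46 genes with several. Both ran the same way for Kcnh1, Kcne1, Kcnj3, Kcnc4, Kcnk3, Kcnk1 and Kcnq5. The probe sets stood on both sides of 0 for Kcnma1, Kcnk13, Kcnq1ot1, Kcnd2, Kcnt1 and Kcnd3. Those of Kcns2 differed by 0.61 and 0.01.

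**Figure D4:**
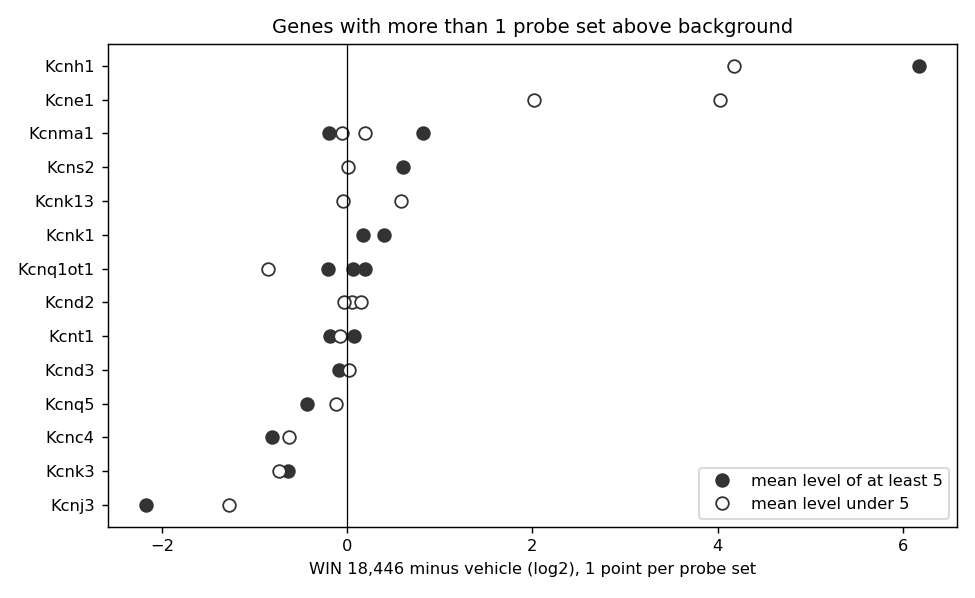
WIN 18,446 minus vehicle (x axis, log2) for each probe set above background of the 14 genes that had more than 1; filled points have a mean level of at least 5. Kcnh1 (6.17 and 4.18) and Kcne1 (4.03 and 2.01) lie to the right and Kcnj3 (-2.17 and -1.28) to the left.

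Genes around the channel family were taken from 3 lists. Of 4 tested partner genes of potassium channels 3 were lower and 1 was higher, Amigo1 (0.35, groups apart, not called). The median was -0.35. Limma called 1 of the 4, where it called 5.18% of all tested probe sets. The gene called was Nedd4l, a ubiquitin ligase that removes channels from the membrane (difference -0.77, limma adjusted p = 0.0369). Of 11 tested genes of the sodium pump and of potassium cotransport 3 were higher and 8 lower, with a median of -0.23. Limma called 1 of the 11, where it called 5.18% of all tested probe sets. That gene was the pump subunit Atp1b1, which was lower (13.48 and 13.43 with WIN 18,446, against 14.06 and 14.04 with vehicle, difference -0.60, limma adjusted p = 0.0137). The largest difference of the 11 was that of Slc12a5, with 6.53 and 6.55 with WIN 18,446, against 7.49 and 7.60 with vehicle (not called). Fxyd1, Fxyd2, Atp1b2 and Atp1b3 were also lower with the groups apart and not called. Slc12a4 and Slc12a7 were higher with the groups apart and not called. The groups lay apart in 53.1% of all tested probe sets (29.3% lower and 23.8% higher). Of 10 tested sodium, calcium and related cation channels 3 were higher and 7 lower, with a median of -0.08. Limma called 1 higher and 2 lower, where it called 2.27% of all tested probe sets higher and 2.91% lower. Cacna1a, a pore subunit of neuronal calcium channels, read 10.92 and 11.02 with WIN 18,446, against 9.03 and 9.09 with vehicle (difference 1.91, limma adjusted p = 0.00845). The calcium channels Cacna1h (-0.89) and Cacna1d (-0.74) fell, with limma adjusted p of 0.0301 and 0.0421.

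Markers of other cell types were read beside these values, since fewer cells of a type and less RNA per cell cannot be told apart in whole tissue. Endothelial genes were lower in 3 of 3 tested (1 called, Robo4). Their summed level was 9.61 and 9.41 with WIN 18,446, against 10.37 and 10.51 with vehicle. Cardiac and skeletal muscle genes were lower in 3 of 3 tested (1 called, Myh6), with 9.18 and 9.17, against 10.23 and 10.35. Ckm and Myl2 were at background. For peritubular and smooth muscle genes 4 of 4 tested were lower (1 called, Des), with 14.25 and 14.26, against 14.51 and 14.51. Acta2 has the largest part in that sum (13.88 and 13.99, against 14.19 and 14.14, not called), and Cnn1 was at background. Of all tested probe sets, 53.5% were lower and 2.91% were called lower by limma. Kcnj8, Kcnab1, Kcna5 and Kcnj3 were lower with WIN 18,446. They were picked here with their values known, so their direction adds nothing to the marker lists. Of the 31 tested members 20 were lower and 11 higher. The tested probe sets of Kcnma1 stood on both sides of 0 (-0.19 and 0.82). Genes of Sertoli, germ and Leydig cells were read in the same way. Of the 7 Sertoli cell genes limma called 4, all lower, where it called 2.91% of all tested probe sets lower. These were Cldn11 (-1.25), Sox9 (-1.15), Wt1 (-0.58) and Dhh (-0.43). The other 3 were higher and not called, Amh (1.25), Clu (0.06) and Gata4 (0.02). The summed level of the 7 was 16.28 and 16.24 with WIN 18,446, against 16.53 and 16.47 with vehicle. Clu has the largest part in that sum and read 15.38 and 15.36, against 15.33 and 15.28. Of the 7 tested germ cell genes 5 were higher and 2 lower, with a median of 0.18. Limma called 1, Sall4, which was lower (-0.60), where it called 2.91% of all tested probe sets lower. Dnd1 (0.43), Dazl (0.29) and Ddx4 (0.24) were higher with the groups apart, and were not called. The groups lay apart with WIN 18,446 higher in 23.8% of all tested probe sets. The summed level was 14.63 and 14.66, against 14.78 and 14.71. Leydig cell genes were lower in 4 of 4 tested, with 14.92 and 14.69, against 15.25 and 14.99. Limma called 0 of them, with 2 at an unadjusted p under 0.05, as were 4598 of all 20895 tested. Of the erythroid genes only Hbb-b2 was tested (8.62 and 9.45 with WIN 18,446, against 10.53 and 10.38 with vehicle; difference -1.42, not called), and Alas2 and Hba-a1 were at background. Of the macrophage genes only Lyz2 was tested (10.13 and 10.87, against 11.00 and 11.24; difference -0.62, not called). Of 8 neuronal and glial genes on the array 2 were tested, Tubb3 (0.13) and S100b (-0.37), with 0 called by limma and 0 at an unadjusted p under 0.05. Their summed level, 13.08 and 12.91 with WIN 18,446, against 12.84 and 12.91 with vehicle, is nearly all Tubb3. The glial gene Sox10, below the mean level for testing, read 2.80 and 2.73 with WIN 18,446, against 4.75 and 3.98 with vehicle, with the groups apart. Also untested, Syt1 (0.64) and Snap25 (0.41) were higher and Elavl3 (-0.10) and Elavl4 (-0.09) lower, all with overlap. Gap43 was at background. The part of any of these cells in the channel values was not tested.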

How the data were processed

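The values deposited by the authors are normalized log2 levels per probe set and array. RMA and GCRMA are named in the submitters' processing notes, which do not say which of them was used, and versions are not given in the sources used here. Members and lists were chosen with earlier results of these data known. The 64 control probe sets were left out. Of the 45037 others, 20895 averaged 5 or more across the 4 arrays and entered limma 3.58.1 (R 4.3.3; lmFit, eBayes with a variance trend, two-sided, Benjamini-Hochberg over all tested, 2 residual and 3.19 prior degrees of freedom), and an adjusted p under 0.05 is called. Because separate animals or cultures are not stated, p-values reflect the spread among these samples alone, possibly technical. In a simulated check of this fit the share of false calls ran above 0.05, so adjusted p-values may be somewhat too small. Symbols were taken from the GEO platform annotation, and all 84 member symbols matched RefSeq by gene ID (GRCm38.p6). The probe set of highest mean stands for a gene. Members named are Kcnh1, Kcne1, the 24 with the largest difference among those with a group mean of at least 5, the 10 of highest mean, the brightest of each class, and those called; Kcnj15, Kcnj13, Kcnq3, Kcnip3 and others outside this rule were chosen after their values were seen. Alternatives were other level filters, an adjusted p under 0.10, 1 probe set per gene, leaving out each array, the replicate number as a block, eBayes robust or without a trend, and rescaling by quantiles or by medians. Same-numbered arrays did not deviate together (r = 0.014 across probe sets, with only 2 pairs), and the labels do not say that a number marks a shared batch.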

Additional observations from a re-analysis of the deposited data

How the results depend on the processing

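The number of member probe sets called by limma (3 of 31) was 0 without the level filter (22 at an unadjusted p under 0.05), 6 with 2 of 4 arrays at 5 or above (both probe sets of Kcne1 and the second of Kcnh1 pass that filter through the WIN 18,446 arrays alone, so nothing is read from it), 5 with the replicate number as a block (2 higher and 3 lower), 5 with 1 probe set per gene and 6 at an adjusted p under 0.10. With each array left out in turn it ran from 0 to 3. It was 2 without the variance trend, where Kcnj3 was no longer called, and 3 or 4 under the other settings. Over all probe sets the count of 1083 was 3 without the level filter, 372 without the variance trend and 2216 at an adjusted p under 0.10, and ran from 0 to 1422 with each array left out; the 0 came with either vehicle array left out, with 2435 and 2804 at an unadjusted p under 0.05. The count over all probe sets was 1467 with the block. With 2 of 4 arrays at 5 or above it was 1215 of 21067 (35 members tested). With 1 probe set per gene it was 1208 of 10970 (26 members tested). The cause of these shifts was not tested. The median difference over all members was -0.044 with equal array medians, which put the median of all probe sets at -0.043, and -0.18 over members with a mean of at least 5. The Kcnh1 difference ran from 5.74 to 6.61 and that of Kcne1 from 3.35 to 4.71 with each array left out. Of 24 further named genes 3 changed sign with 1 array left out, Kcnc2, Kcnk6 and Kcnq1ot1, and 0 did so under another scaling. Of the called differences 0 reversed. Differences between levels near 2.22 are bounded by background, which limits what can be seen for the 100 probe sets there.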
